A study of Mus musculus with 6 samples.

Results

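The genes described here are 4 orphan nuclear receptors of the NR2 class, Nr2f1 (COUP-TFI), Nr2f2 (COUP-TFII), Nr2f6 (EAR2) and Nr2e1 (Tailless, Tlx), together with Rorb, a receptor of the separate ROR family. Members were taken by name, as every non-control probe set whose platform annotation gives exactly 1 gene symbol and that symbol is 1 of these 5. This gave 14 of the 45037 non-control probe sets of the array, and 5 of the 18193 genes with such a probe set. Of the 14 probe sets, 12 passed the filter on dim signal, which asks for a value above the array's own median on at least 3 of 6 arrays, and all 12 were above it on all 6. The remaining 2, Nr2f2 1431237_at and Rorb 1425162_at, are given as values outside the test. The arrays are Affymetrix MOE430 2.0 hybridisations of ventral telencephalon from mouse embryos at E13.5, 3 arrays from Olig2-/- embryos (knockout replicates 2, 4 and 5) and 3 from Olig2+/+ embryos (wild-type replicates 1, 4 and 5). Each array carried RNA pooled from 3 brains. The labels name neither the kind of Olig2 allele nor the strain or litters, and the design text calls the same tissue ventral forebrain.

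Nuclear receptors are transcription factors that bind DNA through a pair of zinc fingers and carry a pocket for a ligand. Those described here are called orphans because their ligands were unknown when they were found. In the embryonic forebrain the COUP-TFs mostly act as repressors and help set regional identity, with Nr2f2 known as a marker of the caudal ganglionic eminence and of veins and mesenchyme outside the nervous system. Tailless keeps neural progenitors dividing and is needed at the boundary between pallium and subpallium, and Rorb is known from sensory thalamus, cortical layer IV and retina. Olig2, the gene lost in these embryos, encodes a basic helix-loop-helix factor of ventral progenitors, and factors of this class bind the E-box, CANNTG.

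Olig2 itself read 7.48, 7.53 and 7.76 on the knockout arrays and 8.20, 8.22 and 8.42 on the wild-type arrays (log2), a difference of -0.69 that did not pass (limma's adjusted p = 0.511). The labels do not say where its probe set lies relative to the deletion, so this reading does not check the genotype. The tissue label was checked against markers: all 6 listed ventral telencephalic genes that the annotation names passed the filter, among them Dlx1 at 11.03 to 11.24 on the knockout arrays and 11.15 to 11.47 on the wild-type arrays. Nkx2-1 was placed among the hypothalamic genes and not on that list, and it did not pass the filter. The cortical gene Emx1 stayed between 2.27 and 3.09 on all 6 arrays at both of its probe sets, close to the lowest value on the arrays (2.27). Its relative Emx2 read 6.94 to 7.21 on knockout arrays and 6.99 to 7.09 on wild-type arrays, and Eomes and Fezf2, known from cortex, also passed the filter. Of 15 thalamic genes listed 13 passed the filter, and 5 of 8 hypothalamic genes, so the dissected pieces also held transcripts known from the diencephalon. In such bulk RNA, fewer cells of a type and less RNA per cell cannot be told apart. The mean of the 18S ribosomal control probe sets was 7.57, 6.34 and 5.53 on knockout replicates 2, 4 and 5 and 4.87, 6.39 and 5.38 on wild-type replicates 1, 4 and 5 (exact permutation p = 0.3, two-sided, where 0.1 is the smallest that 3 against 3 can give). The part of RNA quality in the results below was not tested.

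Sequence upstream of the receptor genes shows where E-boxes stand relative to their annotated starts. The 250 bases before each start were read from RefSeq (GRCm38.p6), which lists all 5 members, with 2 starts each for Nr2f1 and Rorb. The following 4 windows are printed because they belong to the member with the brightest signal, the member with the most probe sets and the progenitor factor Nr2e1. All 4 lie on the minus strand, and capitals mark CANNTG, which reads the same on both strands.
Nr2f1, outer start, chr13:78198874-78199123: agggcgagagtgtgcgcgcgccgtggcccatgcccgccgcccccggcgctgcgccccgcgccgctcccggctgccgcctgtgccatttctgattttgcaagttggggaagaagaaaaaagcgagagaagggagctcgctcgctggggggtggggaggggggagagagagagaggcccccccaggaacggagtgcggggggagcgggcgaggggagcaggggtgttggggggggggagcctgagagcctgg
Nr2f1, inner start, chr13:78196450-78196699: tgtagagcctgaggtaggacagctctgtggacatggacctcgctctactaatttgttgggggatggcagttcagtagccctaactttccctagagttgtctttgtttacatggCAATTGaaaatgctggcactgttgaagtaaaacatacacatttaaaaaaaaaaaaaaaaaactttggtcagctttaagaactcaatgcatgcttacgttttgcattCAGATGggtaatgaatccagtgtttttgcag
Nr2f2, chr7:70366747-70366996: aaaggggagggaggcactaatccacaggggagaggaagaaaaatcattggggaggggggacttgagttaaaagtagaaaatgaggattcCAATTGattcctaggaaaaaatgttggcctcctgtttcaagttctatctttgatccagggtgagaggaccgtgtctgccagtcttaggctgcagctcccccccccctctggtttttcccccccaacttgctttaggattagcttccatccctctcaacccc
Nr2e1, chr10:42583591-42583840: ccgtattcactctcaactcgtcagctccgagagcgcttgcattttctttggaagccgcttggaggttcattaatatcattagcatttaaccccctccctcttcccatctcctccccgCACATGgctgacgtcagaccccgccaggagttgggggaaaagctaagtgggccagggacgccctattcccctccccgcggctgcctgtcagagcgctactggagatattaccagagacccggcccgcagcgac

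The outer Nr2f1 window held 0 E-boxes and the inner one held 2, CAATTG and CAGATG, whose first bases lie 137 and 31 bases before the start. Nr2f2 held 1, CAATTG, at 161 bases, and Nr2e1 held 1, CACATG, at 133 bases. Nr2f6 held 2, CAGATG and CAGCTG. The outer Rorb window held 0 and the inner one 2, CAAATG and CAGTTG. Among the first listed windows of 27025 genes, 66.0% held at least 1 E-box. The AGGTCA core that nuclear receptors bind, searched on both strands, was found in none of the 7 windows of the members and in 13.8% of the 27025. These matches describe the letters of these windows and are not evidence of binding.

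Of the 12 receptor probe sets tested, none had an adjusted p below 0.05, and 0% of all 22565 probe sets tested did (limma, Benjamini-Hochberg adjustment). In the knockout 5 of the 12 read higher and 7 lower, with a median log2 difference of -0.06, against 0.002 over all probe sets tested. The median size of the difference, taken without its sign, was 0.13 for the 12 and also 0.13 for all. At unadjusted p below 0.05 there was 1 of the 12, the brightest probe set of Nr2f2, while 9.4% of all probe sets were below it and 4.98% were below it and higher. The genotypes did not overlap at 1 of the 12, a dim probe set of Rorb, while they did not overlap at 16.2% of all and were separate and higher at 8.96%. Among the 10630 genes with a kept probe set, each taken by its brightest one, 50.6% read lower in the knockout, 7.9% had an unadjusted p below 0.05 and 16.4% had separate groups. For 10 of the 12 receptor probe sets the 95% interval of the difference lay within a 2-fold change in either direction.

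**Figure D1:**
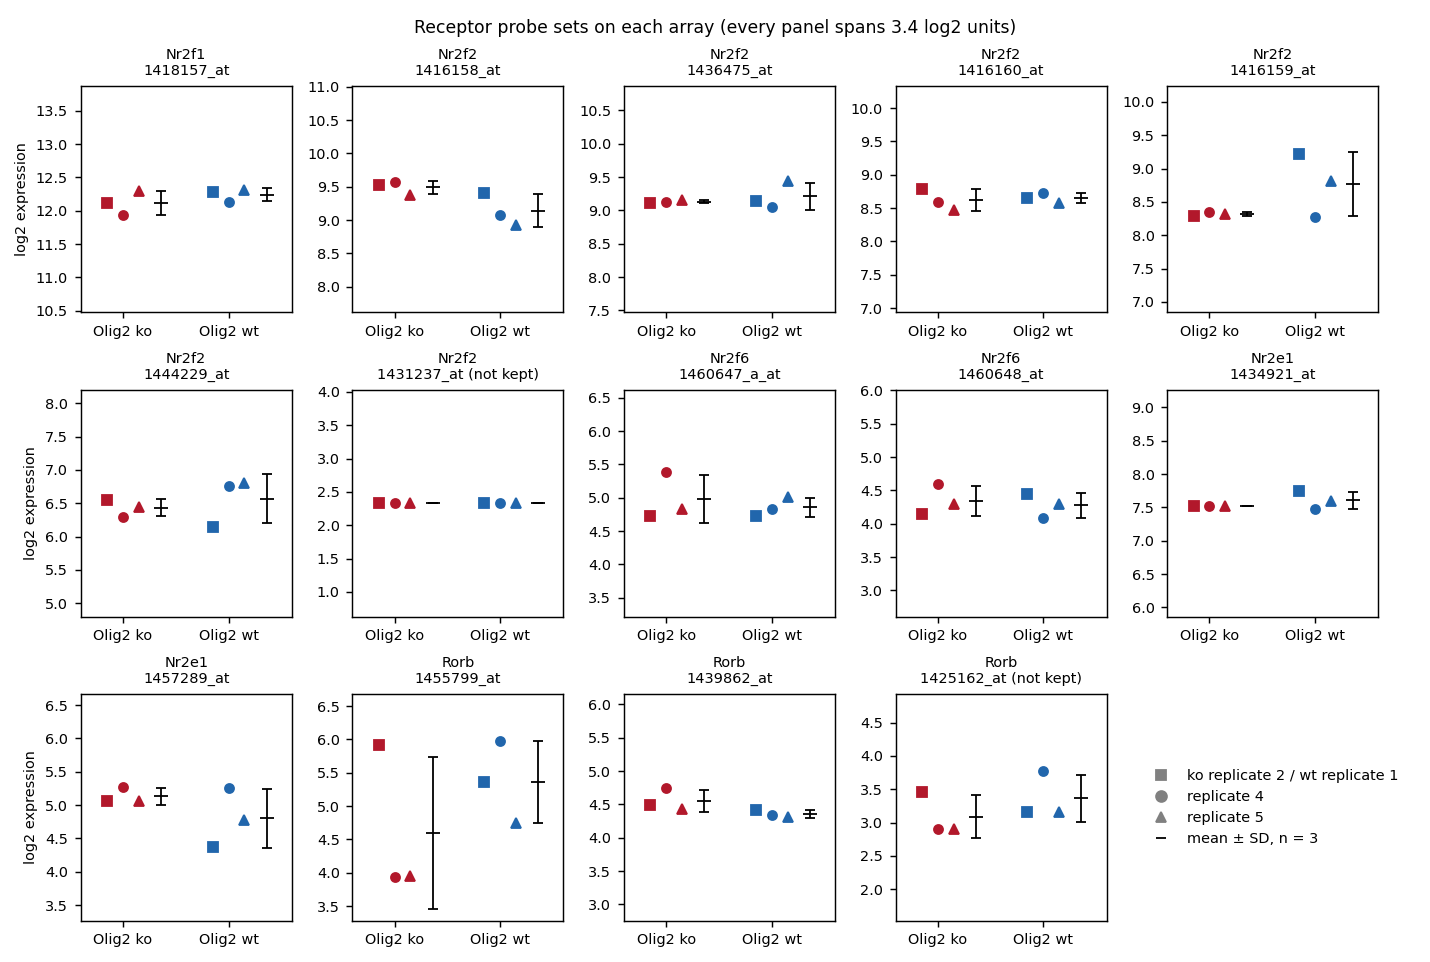
Log2 expression (vertical axis) on each array for all 14 probe sets of the 5 receptor genes, Olig2 ko at left in red and Olig2 wt at right in blue, with symbols for the replicate and black bars for the mean ± SD of 3 arrays. Every panel spans the same range, so the wide scatter of Rorb 1455799_at (3.94 to 5.97) can be set against the narrow one of Nr2e1 1434921_at (7.48 to 7.74).

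Nr2f1, the COUP-TF that patterns cortical areas and is active in the ganglionic eminences, had a single probe set, 1418157_at. It read 12.12, 11.93 and 12.29 on knockout replicates 2, 4 and 5 and 12.28, 12.13 and 12.31 on wild-type replicates 1, 4 and 5. The groups overlapped, and knockout replicate 4 was the lowest array. The log2 difference was -0.13 (SE 0.11, 95% interval -0.41 to 0.15, limma's adjusted p = 0.635). On the linear scale this is 0.915 times the wild-type level, with an interval from 0.754 to 1.11, so a change of 2-fold lies outside it. Leaving out single arrays gave differences from -0.22 to -0.04.

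A noncoding RNA gene, A830082K12Rik, overlaps Nr2f1 on the opposite strand in RefSeq (GRCm38.p6), and was looked at after the values of the genes around the members were seen. Its brightest probe set, 1458470_at, read 4.65, 4.99 and 4.68 on knockout arrays and 5.09, 5.39 and 5.66 on wild-type arrays. Every knockout array lay below every wild-type array, as at 7.25% of all probe sets. The log2 difference of -0.61 (SE 0.17, 95% interval from -1.03 to -0.19) did not pass in limma (adjusted p = 0.511). The difference stayed between -0.75 and -0.47 when single arrays were left out. The other kept probe sets differed by -0.26 (1419990_at) and 0.10 (1444007_at), with overlapping groups, and 1442600_at stayed dim, from 2.82 to 2.84. The probe sets of this gene thus did not give 1 common direction, and the stretch of transcript each one detects was not examined here. Within 200 kb of Nr2f1, the other genes measured were Fam172a (-0.09), Pou5f2 (0.13) and Gm38604 (0.20).

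**Figure D2:**
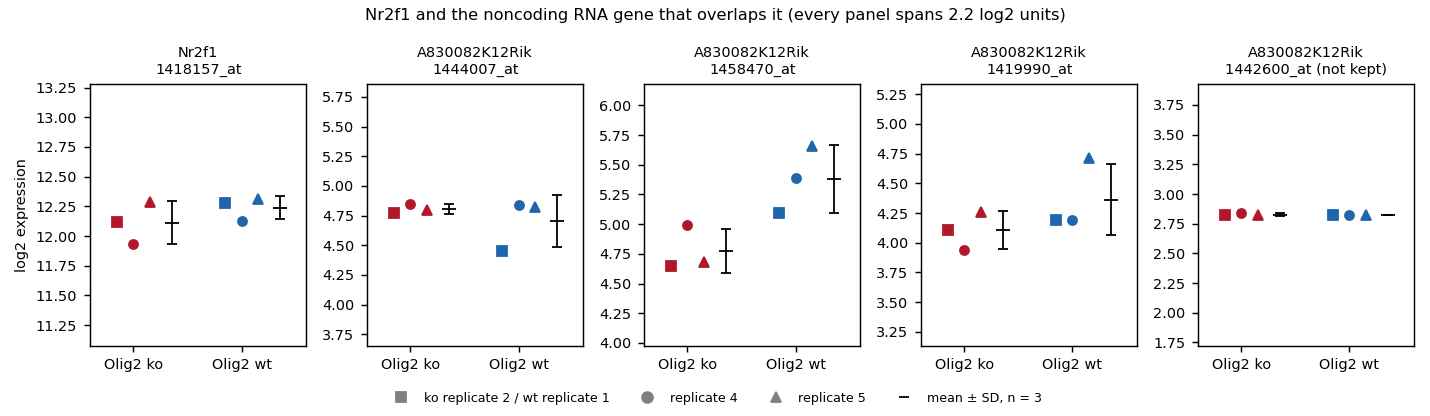
Log2 expression on each array at Nr2f1 and at the 4 probe sets of A830082K12Rik, with Olig2 ko left of Olig2 wt and black bars for the mean ± SD of 3 arrays. Only 1458470_at separates the genotypes (4.65 to 4.99 in the knockout, 5.09 to 5.66 in the wild type).

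Nr2f2, the COUP-TF of the caudal ganglionic eminence, was covered by 6 probe sets that did not move together. Its brightest, 1416158_at, read 9.53, 9.57 and 9.38 on knockout replicates 2, 4 and 5 and 9.41, 9.08 and 8.93 on wild-type replicates 1, 4 and 5. Wild-type replicate 1 lay just above the lowest knockout array, so the groups overlapped. The log2 difference of 0.35 (SE 0.14, 95% interval from 0.01 to 0.70) had an adjusted p of 0.511 in limma, and it ranged over 0.24 to 0.49 with single arrays left out.

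A second probe set, 1416159_at, read 8.29, 8.35 and 8.32 on knockout arrays and 9.22, 8.27 and 8.81 on wild-type arrays. The knockout arrays were nearly equal, and wild-type replicates 1 and 5 stood above them while replicate 4 did not. Its log2 difference was -0.45 (SE 0.23, 95% interval -1.03 to 0.13, limma's adjusted p = 0.518). Dropping wild-type replicate 1 gave -0.22, and dropping wild-type replicate 4 gave -0.69 (limma's adjusted p = 0.238). A further probe set, 1416160_at, differed by -0.04 (SE 0.10). The platform annotation gives all 3 of these probe sets the same sequence record. Differences of 0.35, -0.04 and -0.45 therefore came from 1 annotated transcript source, and no direction can be given for the gene.

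Probe set 1436475_at differed by -0.08 (95% interval -0.36 to 0.21) and 1444229_at by -0.14 (-0.62 to 0.35). The value of 1444229_at rested on single arrays, since dropping wild-type replicate 1 gave -0.35 and dropping wild-type replicate 5 gave -0.02. Probe set 1431237_at was at 2.33 on all 6 arrays, below the filter. The mean of the 5 kept probe sets differed by -0.07, opposite in sign to the brightest one. Within 200 kb of Nr2f2 the only other gene with a probe set was B130024G19Rik, a noncoding RNA gene on the opposite strand, which was dim (2.34 to 2.47 in the knockout, 2.34 in the wild type).

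Since Nr2f2 also marks veins and mesenchyme, levels of those cells were set beside it. The endothelial and pericyte list had 12 of 15 genes measured, with a mean log2 level of 5.35 to 5.50 on knockout arrays and 5.38 to 5.58 on wild-type arrays. Of its 12 genes 5 were higher and 7 lower, and none passed. The receptor gene Kdr read 4.61, 4.44 and 3.94 on knockout arrays and 4.35, 4.64 and 4.44 on wild-type arrays, and Pecam1 read 4.30, 4.27 and 4.32 against 3.38, 4.20 and 4.16. Cdh5, a defining endothelial cadherin, was below 3 on all arrays. Pdgfrb, a pericyte receptor, was 0.41 higher in the knockout at its brighter probe set (limma's adjusted p = 0.511) and differed by -0.15 at the other. Among the 7 lower genes, Notch3 differed by -0.65, and by -0.59 at its other kept probe set. Eng differed by -0.35 and Flt1 by -0.29, and the groups of all these lower genes overlapped. The list of veins and lymphatics had 5 of 6 genes measured, 3 higher and 2 lower, at 5.75 to 5.82 on knockout arrays and 5.72 to 5.73 on wild-type arrays.

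Mesenchymal transcripts were uneven between arrays. Only 3 of 12 listed genes were measured, 2 higher and 1 lower. Their mean was 6.68, 4.36 and 4.48 on knockout replicates 2, 4 and 5 and 5.87, 4.94 and 5.01 on wild-type replicates 1, 4 and 5. The lower gene, Pdgfra, read 5.78, 4.05 and 4.36 on knockout arrays and 6.24, 5.60 and 5.47 on wild-type arrays. Its log2 difference of -1.04 enters this mean, and the cells from which its transcripts came were not examined. Col3a1, a fibrillar collagen, read 8.10 on knockout replicate 2 and 4.04 and 4.09 on the other knockout arrays, with 6.20, 4.35 and 4.67 in the wild type. Col1a1 was not above the filter, and Dcn lay between 2.27 and 3.04. Nr2f2 1416158_at on knockout replicate 2 (9.53) lay between the other knockout arrays, and its difference without that array was 0.33. Among wild-type arrays this probe set was highest on replicate 1 (9.41, with 9.08 and 8.93 on replicates 4 and 5). That array was also the wild-type one with the highest mesenchymal mean, and the difference without it was 0.49. The part of mesenchyme or vessels in the Nr2f2 values was not tested.

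Nr2f6, the COUP-TF relative that shapes the locus coeruleus in the mouse, was dim and showed no separation. Probe set 1460647_a_at read 4.72, 5.39 and 4.83 on knockout arrays and 4.72, 4.83 and 5.01 on wild-type arrays, and 1460648_at read 4.14, 4.59 and 4.29 against 4.45, 4.08 and 4.29. Knockout replicate 4 was the highest array at both probe sets. The log2 differences were 0.13 (95% interval -0.35 to 0.60, adjusted p = 0.783) and 0.07 (-0.31 to 0.44, adjusted p = 0.86) in limma. Without knockout replicate 4 they were -0.08 and -0.06. The 12 other genes measured within 200 kb of Nr2f6 differed by -0.23 (Abhd8) to 0.25 (Mvb12a), and none passed.

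**Figure D3:**
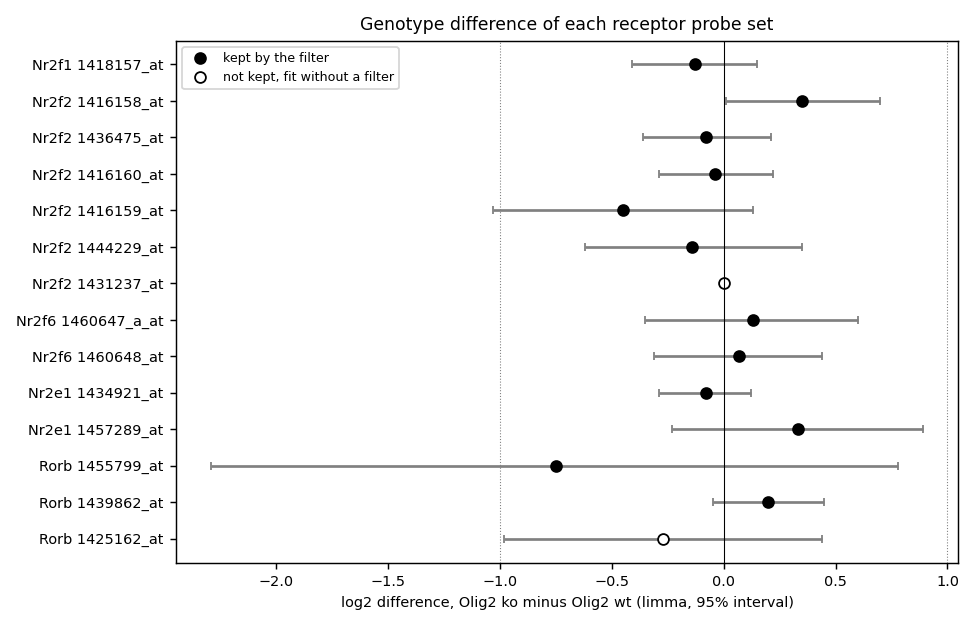
Log2 difference, Olig2 ko minus Olig2 wt, with its 95% interval from limma (horizontal axis) for each of the 14 receptor probe sets; open circles are the 2 that did not pass the filter and dotted lines mark a 2-fold change. Only the interval of Nr2f2 1416158_at leaves out 0 (0.01 to 0.70), and the widest is that of Rorb 1455799_at (-2.29 to 0.78).

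Nr2e1 (Tailless), which represses genes of cell-cycle exit in neural progenitors, had 2 kept probe sets of opposite behaviour. Probe set 1434921_at read 7.52 on each of the 3 knockout arrays and 7.74, 7.48 and 7.59 on wild-type replicates 1, 4 and 5. The knockout values lay inside the wild-type range. Its log2 difference was -0.08 (SE 0.08, 95% interval -0.29 to 0.12, limma's adjusted p = 0.67), which is 0.943 times the wild-type level with an interval from 0.816 to 1.09.

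The dimmer probe set of Nr2e1, 1457289_at, read 5.06, 5.27 and 5.06 on knockout arrays and 4.37, 5.26 and 4.77 on wild-type arrays. Here wild-type replicate 1 was the lowest array, whereas it was the highest at 1434921_at. The log2 difference was 0.33 (SE 0.23, 95% interval -0.23 to 0.89, limma's adjusted p = 0.565). Dropping wild-type replicate 1 gave 0.12, and dropping wild-type replicate 4 gave 0.56. The annotation gives this probe set no sequence record, unlike the brighter one. The mean of both probe sets differed by 0.12. Of the 5 other genes measured within 200 kb of Nr2e1, Ostm1 was the furthest from 0 (-0.33), and none passed.

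Wild-type replicate 1 also stood apart in the marker lists beside Nr2e1. Neuron markers averaged 10.57, 10.49 and 10.53 on knockout replicates 2, 4 and 5 and 10.80, 10.66 and 10.57 on wild-type replicates 1, 4 and 5. Cell cycle genes averaged 9.46, 9.50 and 9.41 on knockout arrays and 9.13, 9.41 and 9.50 on wild-type arrays. Wild-type replicate 1 was highest for neuron markers and lowest for cell cycle genes. Of 12 neuron genes 1 read higher and 11 lower, none past the threshold, and 9 read lower without wild-type replicate 1 and 8 without knockout replicate 4 or wild-type replicate 4. The neurofilament relative Ina differed by -0.60, -0.38 and -0.56 at its 3 kept probe sets, where the median of the list was -0.08. Each had separate groups, as 7.25% of all probe sets did in the lower direction. Wild-type replicate 1 was the highest array at all 3 (11.90, 10.26 and 10.25). Of 11 cell cycle genes 7 read higher and 4 lower. The part of these markers in the Nr2e1 values was not tested. Progenitor markers, the cells in which Nr2e1 is known to act, averaged 9.33 to 9.42 on knockout arrays and 9.32 to 9.44 on wild-type arrays. Of these 11 genes 5 were higher and 6 lower, and none passed. Hes1, a repressor downstream of Notch, was 0.40 higher in the knockout (5.93, 6.27 and 5.89 against 5.63, 5.70 and 5.56, limma's adjusted p = 0.511). Notch1 differed by -0.43 with overlapping groups (limma's adjusted p = 0.511), and by -0.64 at its other kept probe set. That probe set read 5.27, 5.46 and 5.26 on knockout arrays and 6.18, 5.64 and 6.10 on wild-type arrays. Its groups were separate, as at 7.25% of all probe sets in the lower direction.

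Rorb, the retinoid-related orphan receptor of sensory thalamus and layer IV, varied more between arrays of 1 genotype than between genotypes. Its brightest probe set, 1455799_at, read 5.92, 3.94 and 3.95 on knockout replicates 2, 4 and 5 and 5.36, 5.97 and 4.74 on wild-type replicates 1, 4 and 5. Knockout replicates 4 and 5 lay below all wild-type arrays, and knockout replicate 2 lay near the top of the wild-type range. The mean was 4.60 ± 1.14 on knockout arrays and 5.36 ± 0.62 on wild-type arrays (SD, n = 3 each), and 99.5% of all probe sets tested had a smaller spread within genotypes. The log2 difference of -0.75 (SE 0.62, 95% interval -2.29 to 0.78) did not pass in limma (adjusted p = 0.616). With knockout replicate 2 left out it was -1.41 (limma's adjusted p = 0.309). Dropping knockout replicate 4 or 5 gave -0.42 or -0.43, and dropping wild-type replicate 1, 4 or 5 gave -0.75, -0.45 or -1.06.

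The other Rorb probe sets did not share 1 pattern. Probe set 1425162_at, above the array median on 2 of 6 arrays and so outside the test, read 3.46, 2.90 and 2.91 on knockout arrays and 3.16, 3.77 and 3.16 on wild-type arrays. As at 1455799_at, knockout replicate 2 and wild-type replicate 4 were the highest arrays. Probe set 1439862_at read 4.49, 4.74 and 4.43 on knockout arrays and 4.42, 4.34 and 4.31 on wild-type arrays. Its groups were separate, though only between 4.43 and 4.42, and the log2 difference was 0.20 (SE 0.10, 95% interval -0.05 to 0.45, limma's adjusted p = 0.515).

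Of 3 measured choroid plexus genes, 1 had the same highest arrays as Rorb 1455799_at. Ttr, the choroid plexus transthyretin, read 9.99, 6.42 and 4.85 on knockout replicates 2, 4 and 5 and 8.36, 10.96 and 3.46 on wild-type replicates 1, 4 and 5. The 3 arrays highest for Rorb were thus the 3 highest for Ttr. Otx2, a homeobox gene of the list, read 8.21, 8.47 and 8.10 on knockout arrays and 8.01, 7.91 and 8.34 on wild-type arrays, and the secreted Wnt agonist Rspo3 read 6.83, 6.97 and 6.31 against 6.51, 6.72 and 6.96. Neither had the 3 highest arrays of Rorb. Below those 3 arrays the order of Ttr also differed from that of Rorb. Wild-type replicate 5 was the lowest array for Ttr (3.46). For Rorb it read 4.74, above knockout replicates 4 and 5 (3.94 and 3.95). The list, with 3 of 6 genes measured, averaged 6.42 to 8.34 on knockout arrays and 6.25 to 8.53 on wild-type arrays. Col3a1 was highest on knockout replicate 2 as given above, but not high on wild-type replicate 4 (4.35). The part of other tissue in the Rorb values was not tested.

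**Figure D4:**
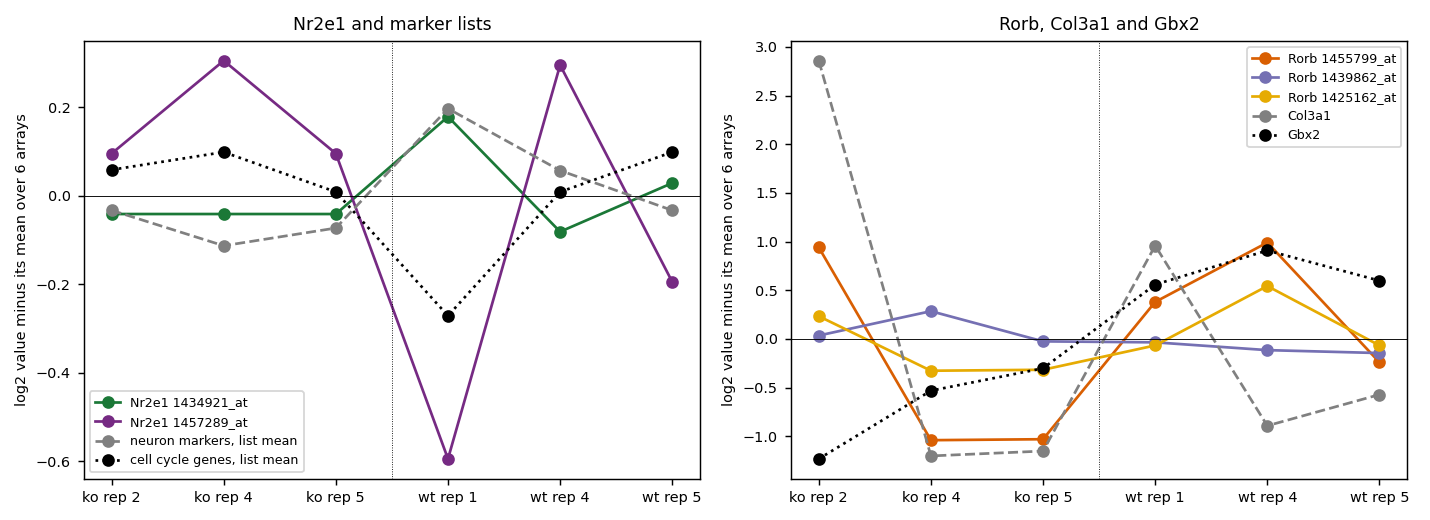
Deviation of each log2 value from its mean over the 6 arrays (vertical axis), array by array, for Nr2e1 with the neuron and cell cycle lists (left) and for Rorb with Col3a1 and Gbx2 (right). The Nr2e1 probe sets point opposite ways on wild-type replicate 1 (7.74, its highest, and 4.37, its lowest), and Rorb 1455799_at is high on knockout replicate 2 (5.92) where Gbx2 is at its lowest (5.14).

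Genes known from the thalamus, where Rorb is expressed, were also compared. Of 13 measured, 4 read higher and 9 lower, none past the threshold, and the median log2 difference was -0.52, against -0.002 over all 10630 genes. Dropping wild-type replicate 4 brought that median to -0.29. At unadjusted p below 0.05 in limma there were 6 lower genes and 1 higher, while 3.91% of all genes were lower and 3.99% higher at that p. Among the lower genes, Tcf7l2 differed by -0.69 and Foxp2 by -0.56 at their brightest probe sets. Both were also lower at their other kept probe sets. The thalamic homeobox gene Gbx2 had values of 5.14, 5.84 and 6.07 on knockout replicates 2, 4 and 5 and 6.93, 7.28 and 6.97 on wild-type replicates 1, 4 and 5 (limma's adjusted p = 0.511). Unlike Rorb, it was lowest on knockout replicate 2. Rora, the close relative of Rorb, read 4.70, 5.18 and 5.49 on knockout arrays and 6.80, 6.57 and 5.88 on wild-type arrays at its brightest probe set. Every knockout array lay below every wild-type array, as at 7.96% of all genes, and the log2 difference was -1.29 (SE 0.30, 95% interval -2.04 to -0.55, limma's adjusted p = 0.511). The other 2 kept Rora probe sets differed by -0.95 and -0.74. The 2 ROR genes were not tested against each other.

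Beside Rora, 14 other nuclear receptor genes outside the 5 members passed the filter, of 37 such genes on the array. Of all 15, 4 read higher and 11 lower, and none passed in limma, with a median log2 difference of -0.13. Without wild-type replicate 1, 5 of 15 were lower and the median was 0.04, so the majority of lower genes rested on that array. At unadjusted p below 0.05 there were 2 lower genes, Rora and the retinoid X receptor Rxra, and 1 higher, Nr4a2, while 3.91% of all genes were lower and 3.99% higher at that p. Rxra, the common dimer partner of many nuclear receptors, read 4.85, 5.07 and 4.74 on knockout arrays and 5.70, 5.16 and 5.36 on wild-type arrays, a log2 difference of -0.52. It was -0.37 without wild-type replicate 1. Nr4a2, a receptor of dopaminergic neurons, was 0.35 higher (7.51, 7.77 and 7.82 against 7.33, 7.28 and 7.44), but its other kept probe sets differed by -0.39, -0.02 and 0.05. Among receptors with higher p, the estrogen-related receptor Esrrg differed by -0.19, the immediate-early receptors Nr4a1 and Nr4a3 by -0.16 and -0.15, the clock component Nr1d2 by 0.11 and the glucocorticoid receptor Nr3c1 by 0.17. The other kept probe sets of Nr3c1 differed by 0.88, with separate groups, and by -0.25. Genes of the NR2 class outside the members were picked out for that kinship after their values were seen. Nr2c1 and Nr2c2 differed by -0.06 (95% interval -0.45 to 0.33) and -0.10 (-0.40 to 0.21). The retinoid X receptors also belong to this class. Beside Rxra at -0.52, Rxrb differed by -0.13 (95% interval -0.58 to 0.32) and Rxrg by -0.04 (-0.71 to 0.64).

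**Figure D5:**
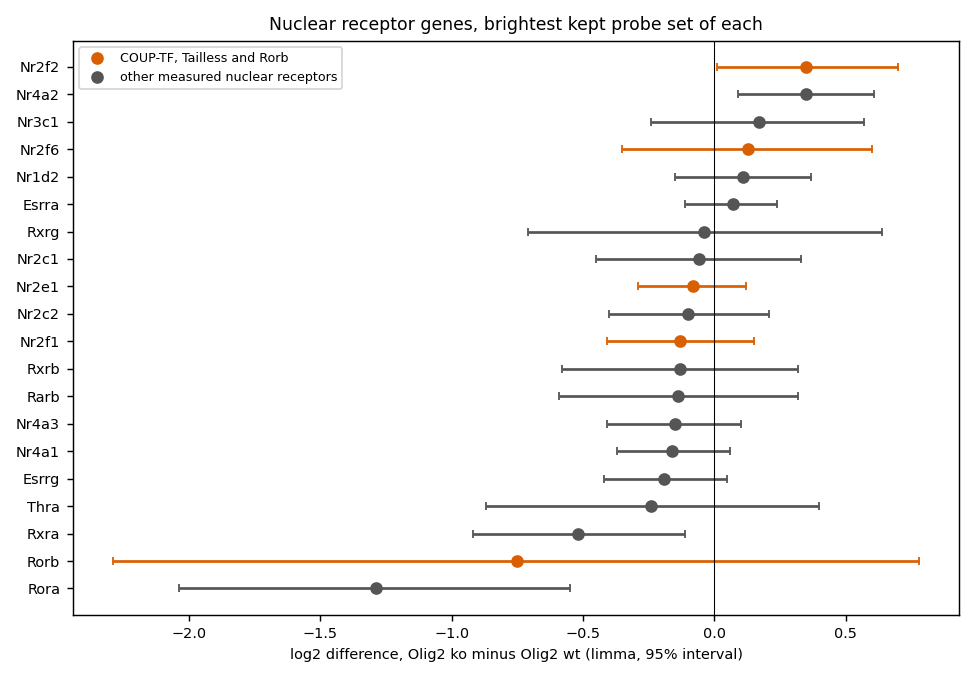
Log2 difference, Olig2 ko minus Olig2 wt, with its 95% interval from limma, for the brightest kept probe set of the 5 members (orange) and of 15 other nuclear receptor genes (grey), ordered by size. Nr2f1, Nr2e1 and Nr2f6 lie close to 0 (-0.13, -0.08 and 0.13), and the intervals of Rora, Rxra, Nr4a2 and Nr2f2 leave out 0.

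Cofactors through which COUP-TFs, Tailless and RORs act were measured for 19 of the 20 on the array. Of these, 8 read higher on knockout arrays and 11 lower, and none passed in limma, with a median log2 difference of -0.05. At unadjusted p below 0.05 there were 5 lower and 0 higher genes, where 3.91% of all genes were lower at that p, and the count of 5 was 2 without wild-type replicate 1 and 1 without knockout replicate 5. Dropping knockout replicate 2 or 4 gave 3 or 2, and dropping wild-type replicate 4 or 5 gave 5 or 2.

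Zfpm2 (Fog2), a corepressor that binds COUP-TFII, read 6.22, 6.50 and 6.45 on knockout arrays and 6.92, 6.61 and 6.92 on wild-type arrays. Its log2 difference was -0.42, and -0.02 at a second probe set. Rcor2, a corepressor partner of the demethylase LSD1, read 6.58, 6.79 and 6.28 against 7.66, 6.96 and 7.22, a difference of -0.73. Rere, a relative of atrophin, the corepressor of Tailless, differed by -0.46, and the coactivator Ncoa1 by -0.33, with -0.08 at a second probe set of each. At Rcor2, Rere and Ncoa1 wild-type replicate 1 was the highest array. Without it the differences were -0.54 for Rcor2, -0.27 for Rere and -0.20 for Ncoa1.

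Genes linked to COUP-TFs or Tailless in earlier forebrain work, of which 13 of 17 on the array were measured, were 7 higher and 6 lower. None passed in limma, none had an unadjusted p below 0.05, and the median log2 difference was 0.01. The semaphorin receptors Nrp2 and Nrp1 differed by 0.18 and 0.20 at their brightest probe sets, and their other kept probe sets differed by -0.29 to -0.12. The small GTPase Rnd2 differed by -0.17 and the Slit receptor Robo1 by -0.10.

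Genes of the regions in which the receptors are known to act were compared as lists. Of 10 measured genes of the caudal ganglionic eminence, where Nr2f2 is a marker and Nr2e1 is itself listed, 7 were higher and 3 lower with a median of 0.07. Sp8, a zinc finger factor of this region, read 7.05, 7.42 and 7.08 on knockout arrays and 6.72, 6.68 and 6.82 on wild-type arrays (0.45 higher, limma's adjusted p = 0.511). Prox1, a homeobox gene of interneurons from this region, differed by 0.22 at its brightest probe set and by -0.61 and -0.48 at the others. Of 11 measured genes of the pallium to subpallium boundary, the site that needs Tailless, 9 were higher and 2 lower with a median of 0.04. With single arrays left out this median ranged from 0.00 to 0.16. Sp8 is counted in both lists, so their counts are not separate. Gsx2, a homeobox gene on the subpallial side of the boundary, was 0.54 higher (6.74, 6.68 and 6.38 against 5.94, 6.17 and 6.06, limma's adjusted p = 0.511). None of the genes of these 2 lists passed.

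Genes whose values followed the members array by array were sought among 3462 genes with an SD of at least 0.2 over the 6 arrays, with Pearson's r over those 6 arrays as the measure of likeness. For Nr2f1 the closest were Tlcd5 (r = 0.945), Rab3il1 (0.934) and Mir124a-1hg (0.929), and for Nr2f2 1416158_at they were Dock9 (0.947), Apela (0.939) and Cdkn1b (0.934). For Nr2f6 1460647_a_at they were Riox2 (0.986), Bnip3 (0.981) and Kbtbd3 (0.977). For Nr2e1 1434921_at they were Tmeff1 (0.992), Tcf25 (0.992) and Pcnx2 (0.991), and for Rorb 1455799_at Cacna2d2 (0.999), Lrrtm2 (0.992) and Chic1 (0.990). The number of genes with r above 0.9 depended on the probe set. It was 7 for Nr2f1, and for Nr2f2 it was 8 at 1416158_at, 19 at 1436475_at, 12 at 1416160_at, 466 at 1416159_at and 3 at 1444229_at. For Nr2e1 it was 480 at 1434921_at and 186 at 1457289_at, for Nr2f6 42 at 1460647_a_at and 14 at 1460648_at, and for Rorb 64 at 1455799_at and 30 at 1439862_at. The probe sets with the highest counts, Nr2e1 1434921_at and Nr2f2 1416159_at, both had wild-type replicate 1 as their highest array. With 6 arrays such r values only describe these arrays, which share their normalization.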

How the data were processed

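Labelled RNA of 3 Olig2-/- and 3 Olig2+/+ pools was measured on Affymetrix arrays. Of 5 replicates per genotype named in the design text, 3 of each were analysed here. The authors deposited 1 log2 value per probe set and array. GCOS and MAS 5.0 handled the scans, and GCRMA then gave quantile-normalized log2 values, as the series design text states (per the labels, no GCRMA version is named). GCRMA leaves a floor that compresses differences of dim genes, and quantile normalization hides changes in total RNA.

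Probe sets were named from the platform annotation. Only probe sets above the median of their own array on at least 3 of 6 arrays were tested (22565), and a gene was represented by its brightest kept probe set. Genotypes were compared with a moderated linear model, limma 3.58.1 under R 4.3.3, two-sided, with Benjamini-Hochberg adjustment over all kept probe sets and a threshold of 0.05. The fit was tested on simulated data. P-values measure the spread between pooled arrays, and the number of arrays limits precision. Named genes were drawn mainly from the members and from up to 4 genes of lowest p per list (8 for other receptors). Others included the 3 genes most like each member, markers of endothelium and mesenchyme beside Nr2f2, and genes near the members. Not every gene of lowest p in a list is named. The members and gene lists were chosen with earlier results of these data known, and list counts therefore support nothing on their own. Alternatives were other filters, normalizations and variance settings, weighted arrays, blocking on replicate number, averaging the probe sets of a gene, and arrays left out.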

Additional observations from a re-analysis of the deposited data

How the results depend on the processing

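No receptor probe set passed under any alternative, and the lowest adjusted p among them was 0.238 in limma. Directions turned in 8 cases. With the mean of all kept probe sets Nr2f2 gave -0.07 and Nr2e1 0.12. Leaving out single arrays gave -0.08 to 0.25 for Nr2f6 and -0.06 to 0.17 for its probe set 1460648_at, -0.16 to 0.04 for Nr2f2 1436475_at and -0.12 to 0.04 for Nr2f2 1416160_at. The count of probe sets past adjusted p 0.05 was 0 under all alternatives. The count at unadjusted p below 0.05, 2121 as reported, was 3491 with array weights, 3276 without both knockout replicate 2 and wild-type replicate 4, and 1121 to 3490 with single arrays left out (1205 and 1121 without knockout replicates 4 and 5, 1402 and 3490 without wild-type replicates 1 and 4). The median difference of the 5 member genes was -0.08, and -0.15 to -0.02 with single arrays left out.

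With the replicate number as a block, 0 probe sets passed and 2014 had unadjusted p below 0.05 in limma. Knockout replicate 2 and wild-type replicate 1 share their number with no other array. The differences of this fit therefore come only from the arrays numbered 4 and 5. They were -0.11 for Nr2f1, 0.47 for Nr2f2, 0.19 for Nr2f6, -0.02 for Nr2e1 and -1.41 for Rorb. At other probe sets they were -0.41 for Nr2f2 1444229_at, -0.21 for Nr2f2 1416159_at and 0.15 for Nr2e1 1457289_at. Between knockout and wild-type arrays of the same number, deviations from the genotype means correlated at -0.292 (replicates 4) and 0.32 (replicates 5). Arrays of unlike number reached 0.379 (knockout replicate 2 with wild-type replicate 4). These values do not decide whether a shared number pairs the arrays. Counts without single arrays for other lists and the values of other named genes without single arrays were chosen after seeing the data. The cause of these shifts was not tested.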
